A study of Homo sapiens with 6 samples.

Results

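The genes described here are 9 factors known for their part in bone metastasis: PTHLH, IL11, CSF1, TNFSF11, TNFRSF11B, DKK1, RUNX2, CXCR4 and SPP1. They were chosen by name from the 60591 genes of the count table, and all 9 had a row there. The cells were MDA-MB-231, an established human line of triple-negative breast cancer, in its bone-homing variant, and they were exposed to fluid flow in a 3D loading model before their poly(A) RNA was sequenced. The static group had no flow (0 mL/min), the low flow group flow at 1 mL/min and the high flow group flow at 15 mL/min, with 2 libraries in each. All 6 libraries came from the same variant of 1 cell line, and the labels name no other genotype or agent. They place all 6 libraries in the same experiment and number the 2 libraries of a group as replicates, without saying that these were separate cultures. The p-values therefore reflect only library-to-library spread, which may be technical, and no result was repeated here in a further experiment. The comparisons ask how the 9 genes stood at each flow rate relative to static, and how the rates compared with each other.

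Breast cancer cells in bone act on bone through secreted factors. Parathyroid hormone-related protein and interleukin 11 promote the formation of osteoclasts, the cells that resorb bone. They act in part through the balance of the osteoclast factor RANKL (TNFSF11) and its decoy receptor osteoprotegerin (TNFRSF11B). Macrophage colony-stimulating factor is needed by osteoclast precursors to survive. Dickkopf-1 blocks the Wnt signal that osteoblasts need to form bone. TGF-beta released from resorbed bone matrix is known to raise PTHLH in tumour cells, a feedback often called the vicious cycle.

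Library totals ran from 17822642 counts in a static library to 53279537 in a high flow library, and the 2 static libraries were the shallowest. By the column names, static and low flow carried 1 sequencing lane tag and high flow a different one. The high flow names also differ in format, and the names do not say whether a shared tag means a shared run. Every comparison with high flow is thus also one between lane tags, and possibly runs, the effects of which cannot be told apart. It has no value within 1 tag. The labels call the cells endothelial cancer cells. All 7 markers of the mesenchymal-type MDA-MB-231 line (VIM, KRT8, KRT18, CD44, ANXA1, CAV1 and AXL) reached 1 CPM in every library (CPM is a gene's count scaled to its library's normalized total). Of 6 endothelial markers CDH5, VWF, TEK and CLDN5 stayed under 1 CPM in every library, so the endothelial label is not borne out by these defining markers. PECAM1, the endothelial marker that reached 1 CPM in every library, was at 8.44, 13.7 and 12.4 CPM on average in static, low flow and high flow, and the summed endothelial level was 9.98 to 11.0, 14.9 to 15.9 and 13.2 to 14.2 CPM. PECAM1 passed against static under low and high flow (edgeR adjusted p = 0.00778 and 0.0139). KDR, the remaining endothelial marker, went from 1.43 CPM on average in static to 1.02 in low flow (edgeR adjusted p = 0.420) and fell to 0.56 CPM in high flow (log2 fold change -1.39, edgeR adjusted p = 0.0214). These markers thus moved in opposite directions, and the part of such cells in the results was not tested. Of 7 luminal markers PGR was at 0 and ESR1 and CDH1 were under 1 CPM. The summed luminal level was 59.7 to 63.9 CPM in static, 68.1 to 81.7 in low flow and 74.1 to 99.7 in high flow. Its increase came from KRT19, at 29.5, 45.2 and 60.5 CPM on average, which did not pass against static (edgeR adjusted p = 0.313 and 0.0996). FOXA1, GATA3 and EPCAM averaged 19.2, 8.68 and 4.03 CPM in static. In high flow these were lower, at 15.5, 7.89 and 2.76 CPM, and none passed. Of 9 osteoclast and macrophage markers DCSTAMP was at 0 and 4 more were under 1 CPM, and the summed level, nearly all from CD68, was 307 to 313 CPM in static, 275 to 279 in low flow and 264 to 346 in high flow. Of 6 osteoblast and stromal markers IBSP was at 0 and 4 more were under 1 CPM, with a summed level of 1.15 to 2.43 CPM over all libraries. In bulk RNA, fewer cells that use a gene and less of its RNA per cell cannot be told apart.

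The windows upstream of the members that moved under high flow are shown first. PTHLH, DKK1 and IL11 rose there against static, and RUNX2 fell. The windows come from RefSeq on GRCh38.p14, and the 250 bases before a transcript start were searched for 7 of the 9 members. No window of TNFRSF11B or CSF1 was searched. Capitals mark matches, on either strand, to the letters TGANTCA (AP-1), GGAATG (TEAD), TGTGGT (RUNX) and CAGACA (SMAD), motifs chosen after these windows had been read. Those letters occur in 6.57%, 11.9%, 11.0% and 13.6% of 35116 windows of the same length.
DKK1 (chr10:52314031-52314280, plus strand, 250 bases before the start at 52314281): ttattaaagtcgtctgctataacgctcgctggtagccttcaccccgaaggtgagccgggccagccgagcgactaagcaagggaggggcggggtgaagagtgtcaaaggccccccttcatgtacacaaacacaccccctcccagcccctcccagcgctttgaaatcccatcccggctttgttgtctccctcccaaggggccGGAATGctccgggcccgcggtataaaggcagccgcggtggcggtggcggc
IL11 (chr19:55370464-55370713, minus strand, 250 bases before the start at 55370463): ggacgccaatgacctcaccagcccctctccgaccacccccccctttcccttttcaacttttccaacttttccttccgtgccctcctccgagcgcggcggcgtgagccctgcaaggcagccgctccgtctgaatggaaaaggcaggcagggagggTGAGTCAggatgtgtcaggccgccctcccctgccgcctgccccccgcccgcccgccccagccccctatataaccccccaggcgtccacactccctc
PTHLH (chr12:27970002-27970031, minus strand, 30 bases around the match): agaggaggtagaCAGACAgctatgtatata
RUNX2 (chr6:45328080-45328156, plus strand, 77 bases at the far end of the window before the start at 45328330): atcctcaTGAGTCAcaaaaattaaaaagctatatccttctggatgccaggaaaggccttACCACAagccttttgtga
DKK1 held 1 TEAD match, 50 bases before its start, and IL11 held 1 AP-1 match, 96 bases before its start. PTHLH held 1 SMAD match, 43 bases before the RefSeq start at 27969976. The PTHLH window lies in exons of other annotated transcripts of the gene, and only the bases around the match are printed. RUNX2 held an AP-1 match and a RUNX match in the stretch shown, and a further RUNX match 87 bases before the start. A second RUNX2 window, before the start at 45422275, held a TEAD match 41 bases before that start. SPP1 held a RUNX match and a SMAD match, and the windows of CXCR4 and TNFSF11 held none of the 4 motifs. Each motif found in a gene that rose was therefore also found in a member that did not. The 3 genes that rose shared none of these motifs in the windows searched, and a match is a description of the letters, not of a bound site. The counts are per gene and do not tell which start was used.

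Compared per length of transcript, the members spanned a wide range of levels. DKK1 had the highest mean over the 6 libraries, 85.3 TPM (a level per transcript length that sums to the same total in each library, computed here from the counts and exon lengths). IL11 followed at 44.8 TPM, RUNX2 at 19.2, CSF1 at 15.7, PTHLH at 7.25 and TNFRSF11B at 6.32 TPM. Over the libraries the TPM ranges of neighbours overlapped for RUNX2 and CSF1, for PTHLH and TNFRSF11B, and lower down for CXCR4 and SPP1. Within every single library RUNX2 still stood above CSF1. CXCR4 likewise stood above SPP1 in each, though by as little as 5 against 4 counts in static replicate 1. PTHLH and TNFRSF11B changed order, with 4.53 and 5.91 TPM in static replicate 1 and 11.6 and 5.60 in high flow replicate 1. CXCR4 at 0.61 TPM and SPP1 at 0.26 TPM lay far below, with 5 to 29 and 3 to 15 counts per library. TNFSF11 had no count in any library.

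**Figure D1:**
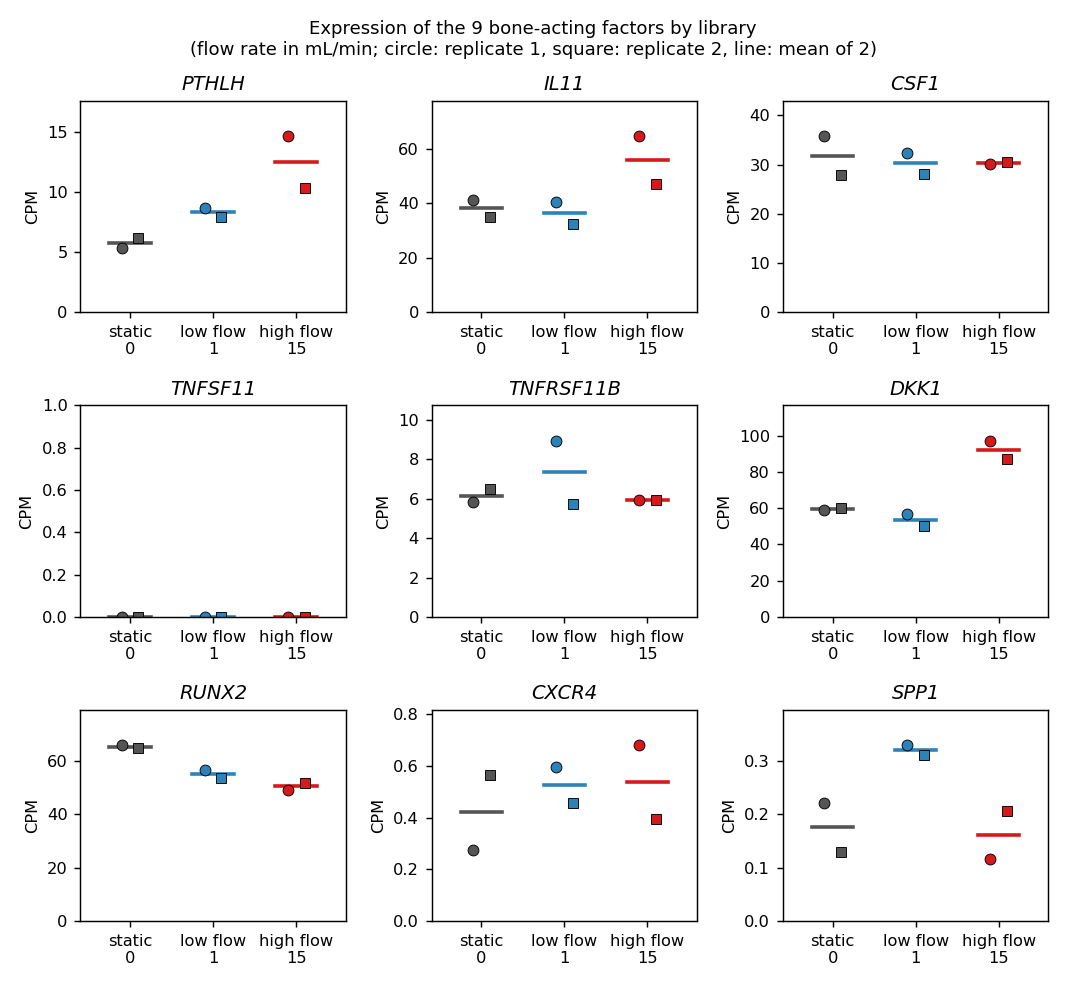
Expression in CPM (vertical axes, linear from 0, each panel with its own scale) of the 9 factors by flow group, with a point for each of the 2 libraries and a line at their mean. DKK1 and IL11 stand higher in both high flow libraries than in any other library, PTHLH steps up from static to low to high flow, RUNX2 steps down, and TNFSF11 is at 0 throughout.

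Under high flow the secreted factors PTHLH, DKK1 and IL11 rose against static, and the transcription factor RUNX2 fell. Of the 8 members that passed the expression filter 3 were thus called higher and 1 lower (edgeR's quasi-likelihood test, adjusted p under 0.05), while 7.49% of the 20676 genes tested were called higher and 6.43% lower, 13.9% in all. The same 3 members were higher and the same 1 lower in both high flow libraries than in both static ones, a rule that 29.9% of all genes met upward and 29.4% downward. Over the 8 members tested the median log2 fold change was 0.12, against 0.00 for all genes. The members were picked with earlier results of these libraries known, so these counts describe the list and are not independent evidence of its direction.

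PTHLH encodes parathyroid hormone-related protein, which acts on osteoblasts through the receptor PTH1R and so raises osteoclast formation. It lies on chromosome 12 (GRCh38, 27958084 to 27972705, minus strand). Static libraries measured 5.35 and 6.17 CPM, low flow libraries 8.74 and 7.94 CPM, and high flow libraries 14.7 and 10.4 CPM. Every low flow value lay above every static value, and every high flow value above every low flow value. The mean rose from 5.76 ± 0.58 CPM in static to 12.5 ± 3.05 CPM in high flow (SD, n = 2), a 2.16-fold increase with a log2 fold change of 1.11 (SE 0.18, 95% confidence interval 0.74 to 1.49, edgeR adjusted p = 0.00101). It was rank 163 by p among the 20676 genes. Without high flow replicate 1, the higher of the pair, the log2 fold change was 0.85 with an adjusted p of 0.0488. The gene shares 353 of its 3377 exonic bases with a gene on the opposite strand that had 0 to 5 counts per library.

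IL11 encodes interleukin 11, a cytokine of the gp130 family that promotes osteoclast formation (chromosome 19, 55364389 to 55370463, minus strand). Its level was 41.1 and 35.1 CPM in static, 40.4 and 32.4 CPM in low flow and 64.7 and 47.0 CPM in high flow. Static and low flow overlapped, and both high flow libraries stood above them. IL11 rose 1.47-fold under high flow, from 38.1 ± 4.25 to 55.8 ± 12.5 CPM (SD, n = 2), with a log2 fold change of 0.55 (SE 0.16, 95% confidence interval 0.19 to 0.91). The edgeR adjusted p was 0.0496, just under the threshold, and the call ended in 5 of 14 alternative fits. Without high flow replicate 1 its log2 fold change was 0.31 (adjusted p = 0.312), without static replicate 1 the adjusted p was 0.114 and without static replicate 2 it was 0.342. Offsets for length and GC content gave 0.47 (adjusted p = 0.0707), and upper quartile normalization an adjusted p of 0.0526.

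CSF1, the gene of macrophage colony-stimulating factor, which osteoclast precursors need to survive, was at 27.8 to 35.8 CPM over all 6 libraries. The 3 groups overlapped. Against static its log2 fold change was -0.07 under high flow (95% confidence interval -0.32 to 0.19, edgeR adjusted p = 0.766) and -0.07 under low flow (95% confidence interval -0.33 to 0.19, edgeR adjusted p = 0.787). CSF1 had a transcript GC content of 59.5%, and with offsets for length and GC content its high flow value was -0.30 (edgeR adjusted p = 0.0954).

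TNFSF11 encodes RANKL, the ligand that osteoclast precursors need. It was not detected: 0 of 230853610 counts in the 6 libraries together, which allows up to 0.013 CPM at the limit of 3 counts. In single libraries that limit was 0.0563 to 0.165 CPM, for counting error only. TNFRSF11B, which encodes osteoprotegerin, the decoy receptor that binds RANKL, was measured at 5.84 and 6.48 CPM in static, 8.96 and 5.76 CPM in low flow and 5.92 and 5.95 CPM in high flow. The low flow libraries lay on both sides of the others. Its log2 fold change was 0.25 under low flow (95% confidence interval -0.16 to 0.67, edgeR adjusted p = 0.477) and -0.06 under high flow (95% confidence interval -0.48 to 0.36, edgeR adjusted p = 0.882). With RANKL at 0 no ratio of the pair can be given.

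DKK1 encodes the secreted Wnt inhibitor Dickkopf-1 (chromosome 10, 52314296 to 52318042, plus strand). Static libraries had 58.9 and 59.9 CPM, low flow libraries 56.7 and 49.9 CPM, and high flow libraries 97.3 and 87.4 CPM. Both low flow values lay below both static values, and both high flow values far above. From static to high flow DKK1 rose 1.55-fold, from 59.4 ± 0.72 to 92.4 ± 6.99 CPM (SD, n = 2), with a log2 fold change of 0.64 (SE 0.10, 95% confidence interval 0.42 to 0.85, edgeR adjusted p = 0.000929). This was rank 144 by p among all genes. The call held in all 14 alternative fits, with log2 fold changes of 0.56 to 0.78 and a highest adjusted p of 0.0436, without high flow replicate 1. DKK1 shares 212 of its 2206 exonic bases with PRKG1-AS1 on the opposite strand, which had 31 to 79 counts per library against 1068 to 4656 for DKK1.

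RUNX2, the master transcription factor of osteoblasts, which breast cancer cells that home to bone also use, was the member that fell (chromosome 6, 45328157 to 45664349, plus strand). It measured 65.8 and 64.7 CPM in static, 56.7 and 53.4 CPM in low flow and 49.2 and 51.7 CPM in high flow, and no 2 groups overlapped. The decrease from 65.2 ± 0.74 to 50.4 ± 1.80 CPM under high flow (SD, n = 2) was a log2 fold change of -0.37 (SE 0.10, 95% confidence interval -0.57 to -0.17, edgeR adjusted p = 0.0168). Leaving out either static or either high flow library ended the call, with adjusted p of 0.0533 to 0.185 and log2 fold changes of -0.41 to -0.33.

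CXCR4, the chemokine receptor that guides cells toward CXCL12 in bone marrow, had 5 and 13 counts in static, 27 and 22 in low flow and 29 and 21 in high flow, or 0.28 to 0.68 CPM over all libraries. The 3 groups overlapped. Its log2 fold changes against static were 0.28 under low flow (95% confidence interval -0.78 to 1.33, edgeR adjusted p = 0.792) and 0.29 under high flow (95% confidence interval -0.76 to 1.34, edgeR adjusted p = 0.743), and both intervals are wide at these counts. SPP1, the gene of osteopontin, a bone matrix protein that integrins and CD44 bind, had 4 and 3 counts in static, 15 and 15 in low flow and 5 and 11 in high flow. Both low flow libraries, at 0.33 and 0.31 CPM, stood above the other 4, at 0.12 to 0.22 CPM. The log2 fold change of SPP1 under low flow was 0.89 with a 95% confidence interval of -0.50 to 2.28 and an edgeR adjusted p of 0.444.

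**Figure D2:**
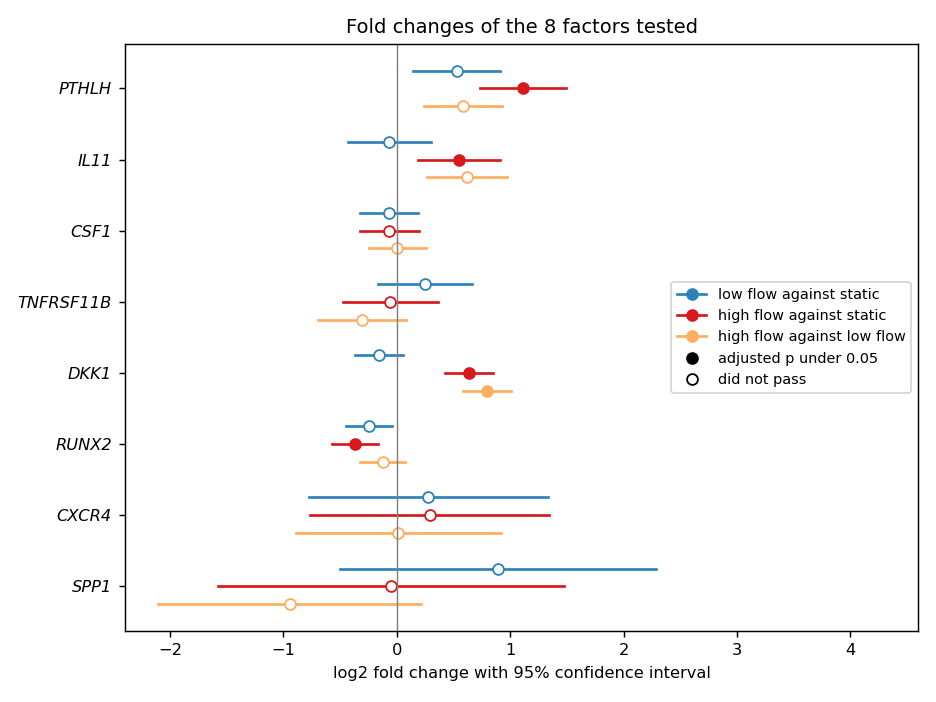
Log2 fold changes (horizontal axis) of the 8 tested factors in the 3 comparisons, with bars for the 95% confidence interval and filled points where the adjusted p was under 0.05. Filled points stand at PTHLH, IL11, DKK1 and RUNX2 for high flow against static and at DKK1 for high flow against low flow, and the bars of CXCR4 and SPP1 are the widest.

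Under low flow no member passed the test. For SPP1, TNFRSF11B and, narrowly, CSF1 (-0.069 against -0.066) the log2 fold change was further from 0 than under high flow. Each of these low flow intervals included 0, and without low flow replicate 1 the value of TNFRSF11B was -0.10. By edgeR's quasi-likelihood test 0 of 8 passed against static, 2 had an unadjusted p under 0.05 (PTHLH and RUNX2) and 0 passed with DESeq2, while 6.74% of all tested genes passed with edgeR, 3.25% higher and 3.49% lower. PTHLH had the smallest p of the 8, with a log2 fold change of 0.53 (SE 0.18, 95% confidence interval 0.15 to 0.91, edgeR adjusted p = 0.0868). For RUNX2 it was -0.25 (SE 0.10, edgeR adjusted p = 0.127). DKK1 stood at -0.16 (edgeR adjusted p = 0.375) and IL11 at -0.07 (edgeR adjusted p = 0.859). PTHLH and SPP1 were higher and DKK1 and RUNX2 lower in both low flow libraries than in both static ones, 4 of 8 members, while 27.1% of all genes were higher and 26.3% lower by that rule. Static and low flow shared a lane tag, so these values are within 1 tag. PTHLH did pass without the expression filter (adjusted p = 0.0214), and RUNX2 once offsets for length and GC content were added (adjusted p = 0.0348).

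Between the flow rates DKK1 was the 1 of 8 members that passed, where 0.334% of all tested genes did, 0.242% higher and 0.0919% lower. DKK1, PTHLH and IL11 were higher and RUNX2 and SPP1 lower in both high flow libraries than in both low flow ones, while 21.2% of all genes were higher and 21.5% lower by that rule. It was 1.73-fold higher under high flow than low flow, 92.4 ± 6.99 against 53.3 ± 4.78 CPM (SD, n = 2), with a log2 fold change of 0.79 (SE 0.10, 95% confidence interval 0.58 to 1.00, edgeR adjusted p = 0.00111). By p it ranked 5 among the 20676 genes. Without high flow replicate 1 the log2 fold change was 0.72 with an adjusted p of 0.0643, when 4 genes in all passed. IL11 had a log2 fold change of 0.62 (95% confidence interval 0.26 to 0.97) with an edgeR adjusted p of 0.248, and passed with DESeq2 (adjusted p = 0.0174), without the expression filter (6.87e-06), and without low flow replicate 1 (0.00213). PTHLH stood at 0.59 (95% confidence interval 0.24 to 0.93, edgeR adjusted p = 0.211) and passed without the expression filter (adjusted p = 0.0189). In both cases the interval for the single gene excluded 0 while the p adjusted over all genes did not pass. RUNX2 had -0.13 (edgeR adjusted p = 0.707), TNFRSF11B -0.31 (0.620), SPP1 -0.94 (0.609), CXCR4 0.02 (0.994) and CSF1 0.00 (0.995).

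High flow replicate 1 was higher than replicate 2 for all 3 genes that rose: 14.7 against 10.4 CPM for PTHLH, 64.7 against 47.0 for IL11 and 97.3 against 87.4 for DKK1. Without that library the log2 fold changes against static were 0.85, 0.31 and 0.56, and without high flow replicate 2 they were 1.34, 0.76 and 0.71. Leaving out the higher of a pair lowers the estimate by construction, so these values give a range and do not tell which library is nearer the true size. Transcript GC content was 47.6% for PTHLH, 43.5% for DKK1, 55.6% for IL11 and 46.2% for RUNX2. With offsets for length and GC content the high flow log2 fold changes against static were 1.14 for PTHLH, 0.78 for DKK1, 0.47 for IL11 and -0.41 for RUNX2.

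**Figure D3:**
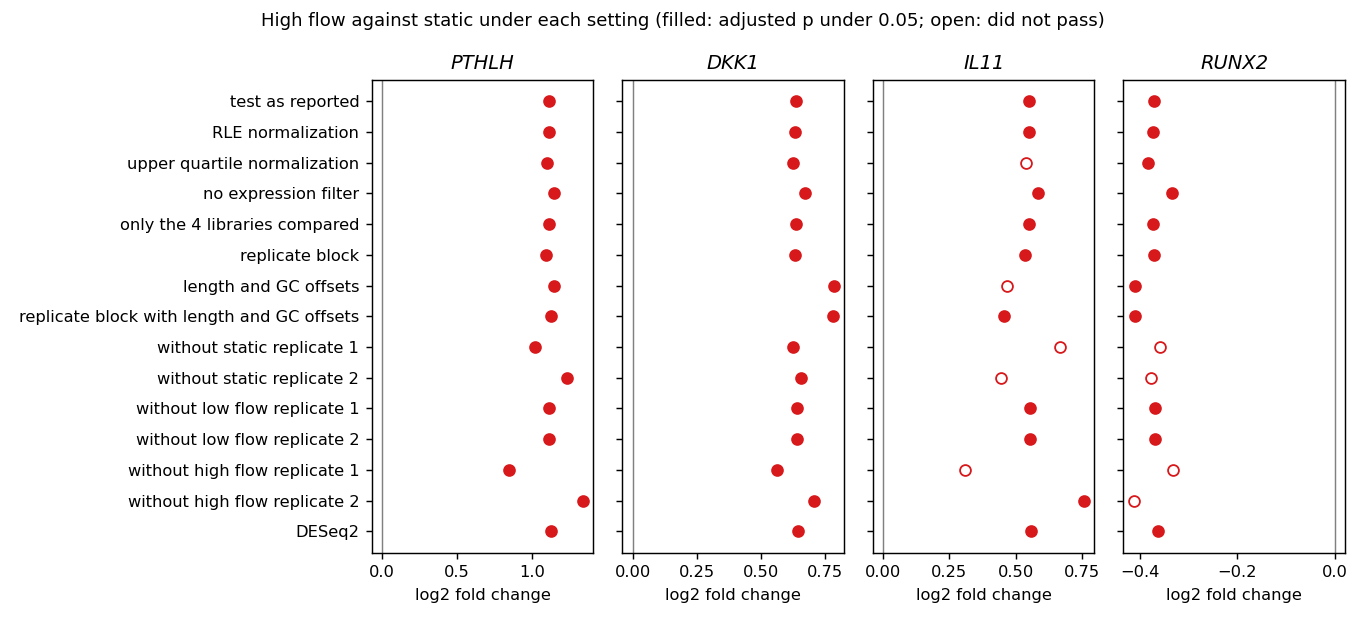
Log2 fold change of PTHLH, DKK1, IL11 and RUNX2 (horizontal axes, 1 panel a gene), high flow against static, under the reported test and 14 alternative settings (rows). Filled points passed at an adjusted p under 0.05: all points of PTHLH and DKK1 are filled, IL11 has 5 open points and RUNX2 has 4, and no point crosses 0.

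The receptors and direct partners of the members were looked at next, 20 genes in all, of which 19 were tested and 3 passed in at least 1 comparison: IL11RA, RUNX1 and CBFB. Among all 20676 genes 15.7% passed in at least 1 comparison, so 3 of 19 is near the background. IL11RA, the receptor subunit specific to interleukin 11, rose from 8.71 and 7.30 CPM in static to 11.1 and 12.8 CPM in low flow (log2 fold change 0.59, edgeR adjusted p = 0.0310) and to 13.4 and 11.2 CPM in high flow (1.54-fold, edgeR adjusted p = 0.0139). The IL11RA call ended in 8 of 14 alternative fits for low flow, among them the replicate block and each fit without a static library, and in 3 of 14 for high flow, without static replicate 2, without high flow replicate 1 and with block and offsets together. Its signalling partner IL6ST (gp130) was at 260 to 358 CPM and did not pass. PTH1R, the receptor for the PTHLH product, was at 1.70 to 2.76 CPM, and GLI2, a transcription factor known to drive PTHLH, at 5.44 to 7.77 CPM. Neither of these passed. Among the receptors that DKK1 binds or uses, LRP5 was at 276 to 366 CPM, LRP6 at 76.5 to 92.9, KREMEN1 at 2.56 to 3.86 and KREMEN2 at 0.94 to 1.97 CPM, and none of the 4 passed in any comparison. The lowest adjusted p among these 4 was 0.0765, for LRP5 under low flow against static (edgeR), and under high flow KREMEN1 had 0.0871 and LRP5 0.0913.

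TNFRSF11A, which encodes RANK, the receptor for RANKL, was at 14.8 to 18.4 CPM in these tumour cells, with a log2 fold change of 0.27 under high flow (edgeR adjusted p = 0.146). CSF1R, the receptor for the CSF1 product, stayed at 1.16 to 1.69 CPM. IL34, a second ligand of that receptor, and TNFSF10, a further ligand that osteoprotegerin binds, were under 0.4 CPM in every library. CXCL12, the ligand of CXCR4, had 1 count in 1 library and was at 0 in the other 5. ACKR3, a second receptor for CXCL12, had 1 count in each static library, 10 and 18 in low flow and 16 and 5 in high flow, and did not pass (edgeR adjusted p = 0.131 and 0.183 against static). CD44, a receptor for osteopontin, was at 923 to 1053 CPM, and the integrin genes ITGAV and ITGB3 at medians of 97.0 and 7.62 CPM. None of these genes passed.

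RUNX2 binds DNA together with the subunit encoded by CBFB. CBFB measured 127 and 132 CPM in static, 111 and 108 CPM in low flow and 98.8 and 105 CPM in high flow, and fell under high flow with a log2 fold change of -0.35 (SE 0.09, edgeR adjusted p = 0.0199). RUNX1 went the other way, from 142 and 151 CPM in static to 190 and 187 CPM in high flow, a log2 fold change of 0.36 (SE 0.09, edgeR adjusted p = 0.0159). RUNX3 was under 0.4 CPM in every library. The CBFB and RUNX1 calls each ended when either high flow library or static replicate 2 was left out, and that of RUNX1 also without static replicate 1. CBFB also ended with the length and GC offsets.

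The 5 lists of genes around the members, drawn up with earlier results of these libraries known, were counted in the same fit. For comparison, 3.25% of all tested genes were called higher and 3.49% lower under low flow and 7.49% higher and 6.43% lower under high flow, and the median log2 fold change of all genes was 0.01 and 0.00. In the list of the PTHrP, IL-11 and TGF-beta axis 18 of 19 genes were tested. Under low flow 2 rose, IL11RA and SMAD7, and under high flow 3 rose, these and TGFB1, out of 18, with medians of 0.14 and 0.08 on the log2 scale. SMAD7, an inhibitor that TGF-beta signalling itself induces, went from 42.0 and 43.7 CPM in static to 101 and 65.5 CPM in low flow and 152 and 135 CPM in high flow. That was 1.94-fold under low flow (edgeR adjusted p = 0.0287) and 3.34-fold under high flow (edgeR adjusted p = 0.00209). TGFB1, the gene of the ligand itself, rose 1.39-fold under high flow (edgeR adjusted p = 0.00896). The SMAD7 call under low flow ended in 4 of 14 alternative fits, without either static library and with the offsets, alone or with the block. Under high flow it ended without static replicate 2, and that of TGFB1 ended in 5 of 14 alternative fits, among them those without either static library or high flow replicate 1.

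In the DKK and Wnt list 14 of 24 genes were tested, and the secreted antagonists SFRP1, SFRP2, SFRP4, FRZB and SOST were among the 10 left out for low counts. Under low flow 4 rose (CTNNB1, WNT5A, AXIN2 and WNT7B) and under high flow 3 rose (CTNNB1, WNT10B and WNT7B), out of 14, with medians of 0.31 and 0.27. CTNNB1, the gene of beta-catenin, rose 1.35-fold and 1.32-fold (edgeR adjusted p = 0.0182 and 0.0156). AXIN2, a target and inhibitor of Wnt signalling, rose 1.55-fold under low flow (edgeR adjusted p = 0.0329) and had an adjusted p of 0.0875 under high flow. The Wnt ligand gene WNT7B rose 1.40-fold under low flow and 1.90-fold under high flow (edgeR adjusted p = 0.0266 and 0.000224). WNT10B, another ligand, went from 0.62 to 1.67 CPM under high flow (edgeR adjusted p = 0.0130). Under low flow the call ended in 7 of 14 alternative fits for WNT5A, 6 for AXIN2, 5 for CTNNB1 and 3 for WNT7B, in each case including when static replicate 2 or low flow replicate 2 was left out. Under high flow it ended in 4 of 14 for CTNNB1 and 2 for WNT10B, in both cases including when static replicate 2 or high flow replicate 1 was left out, and in 0 of 14 for WNT7B.

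In the RANK and CSF1 osteoclast list 21 of 22 genes were tested. Under low flow 5 rose (PTGS2, IL1B, PTGES, CSF3 and ADAMTS1) and CCL5 fell, and under high flow 4 rose (PTGS2, NFATC1, JAG1 and ADAMTS1) and TNF fell, out of 21, with medians of 0.21 and 0.15. ADAMTS1, a matrix protease tied to bone metastasis, stood at 110 and 134 CPM in static, 195 and 169 in low flow and 313 and 304 in high flow. It rose under low flow (1.49-fold, edgeR adjusted p = 0.00681), under high flow (2.52-fold, edgeR adjusted p = 2.21e-06) and between the 2 rates (1.69-fold, edgeR adjusted p = 0.00305). The call between the rates ended when either high flow library was left out, and that for low flow without static replicate 1. PTGS2, the cyclooxygenase that makes prostaglandin precursors, rose 1.89-fold under low flow and 1.60-fold under high flow (edgeR adjusted p = 0.0001 and 0.000564), and both calls held in 14 of 14 alternative fits. JAG1, a Notch ligand through which tumour cells act on bone cells, rose 1.39-fold under high flow (edgeR adjusted p = 0.00545), and NFATC1, a transcription factor of osteoclasts, rose 1.81-fold (edgeR adjusted p = 0.00694). IL1B rose 1.48-fold under low flow (edgeR adjusted p = 0.0122) and had an adjusted p of 0.636 under high flow. The JAG1 call ended without high flow replicate 1, that of NFATC1 in 4 of 14 alternative fits, including those without static replicate 2 or high flow replicate 1, and that of IL1B without either static library or low flow replicate 2. The PTGES and CSF3 calls ended in 7 of 14 each, including those without static replicate 2 or either high flow library. TNF and CCL5 rested on 1 to 7 and 8 to 16 counts per library, and their calls ended in 6 of 12 and 4 of 13 alternative fits that tested them, including those without either static library. CCL5, CSF3 and TNF fell outside the rule for named genes, and these and PTGES were chosen after their values were seen. PTGES came within the rule by its p between the flow rates, where it did not pass (edgeR adjusted p = 0.0992).

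Of the partners of CXCR4 and osteopontin 10 of 14 were tested, with median log2 fold changes of 0.43 under low flow and 0.52 under high flow. The integrin genes ITGB5 and ITGA5 rose under low flow (1.30-fold and 1.39-fold, edgeR adjusted p = 0.0458 and 0.0329) and under high flow (1.39-fold and 1.51-fold, edgeR adjusted p = 0.00947 and 0.00651). The chemokine gene CXCL16 rose under high flow, from 2.01 to 3.45 CPM (edgeR adjusted p = 0.0391). The CXCL16 call ended in 8 of 14 alternative fits: DESeq2, the replicate block, the offsets, both together, and each fit without 1 of the 4 libraries compared. Under low flow the ITGB5 and ITGA5 calls ended in 9 and 8 of 14, among them the replicate block and the fits without either static library. Under high flow they ended in 4 and 2 of 14, both including when static replicate 2 or high flow replicate 1 was left out. In the list of RUNX2 partners and bone genes 15 of 26 were tested, with medians of 0.12 and 0.26. Of the 15, 3 rose under low flow (COL1A1, BMP2 and BMP4) and 4 rose under high flow (these and RUNX1) while CBFB fell. COL1A1, which encodes a chain of type I collagen, measured 11.7 and 12.7 CPM in static, 22.3 and 17.9 in low flow and 45.0 and 38.0 in high flow. It rose 1.65-fold, 3.39-fold and, between the rates, 2.06-fold (edgeR adjusted p = 0.00681, 1.47e-06 and 0.00111). The COL1A1 call between the rates ended without high flow replicate 1 and that for low flow without either static library, while the high flow call against static held in 14 of 14 alternative fits. BMP2 and BMP4, ligands that induce bone formation, rose 1.56-fold and 1.37-fold under low flow (edgeR adjusted p = 0.0349 and 0.0228) and 1.88-fold and 1.56-fold under high flow (edgeR adjusted p = 0.00383 and 0.00194). Under low flow the BMP2 call ended in 8 of 14 alternative fits and that of BMP4 in 2, in both cases including those without either static library, and under high flow both ended when static replicate 2 or high flow replicate 1 was left out. The osteoblast genes SP7, IBSP and ALPL were left out for low counts, at under 0.1 CPM in the mean of every group. COL1A2, the partner chain of COL1A1, was also left out for low counts.

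**Figure D4:**
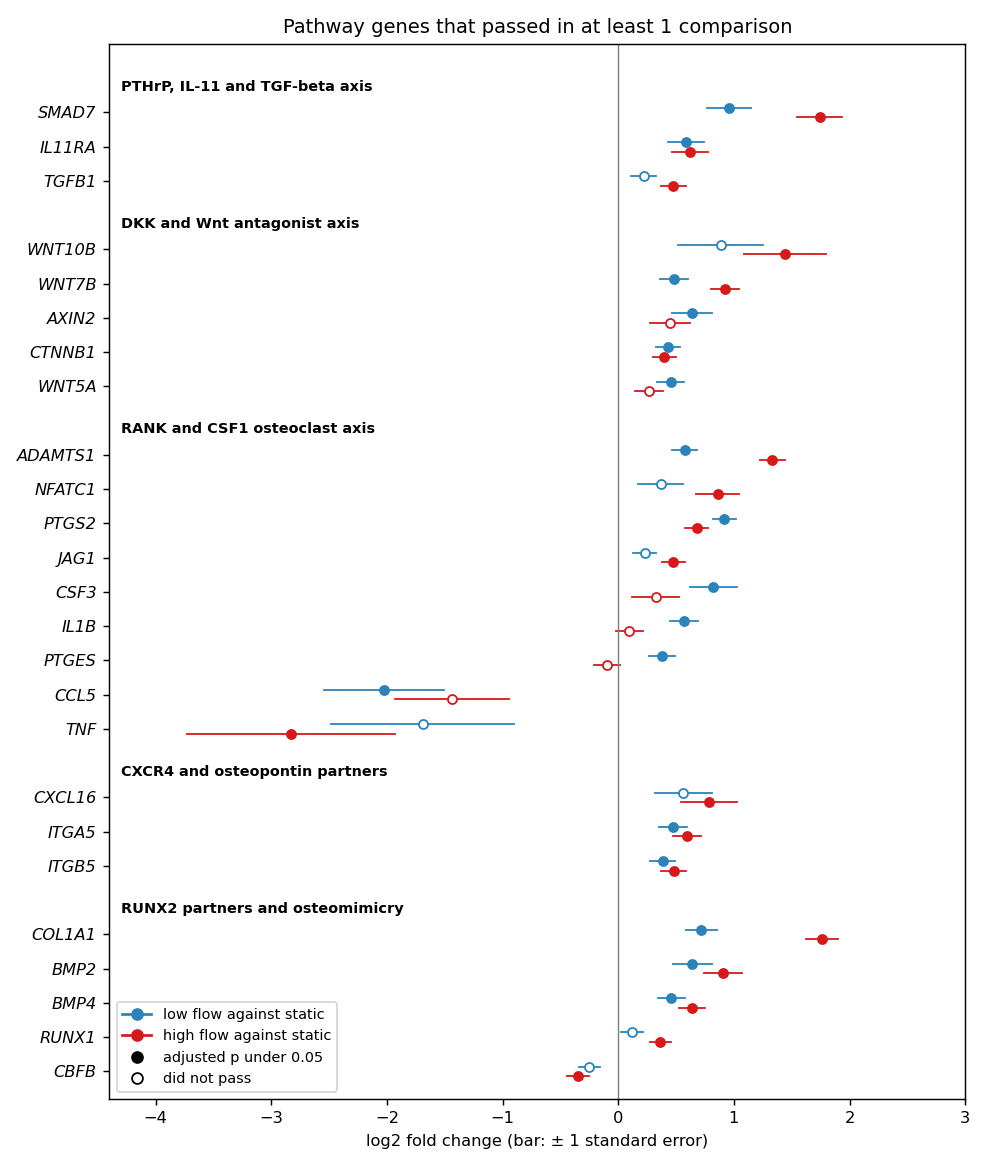
Log2 fold change against static (horizontal axis, bars for 1 standard error) of the 25 listed genes that passed in at least 1 comparison, grouped by list, for low flow and high flow. Filled points had an adjusted p under 0.05, most points lie right of 0, and TNF, CCL5 and CBFB lie left of it under both rates.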

How the data were processed

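Raw counts per gene were deposited by the authors. STAR, featureCounts and the hg38 build are listed in the submitters' processing notes; their versions, the gene annotation and the strand setting are not given in the sources used here. Libraries were made from poly(A) RNA with a stranded kit, per the labels' protocols. Columns were matched to samples by the column names in the labels. The main test was edgeR's quasi-likelihood test (version 4.0.16, R 4.3.3), two-sided, after TMM scaling and edgeR's expression filter (minimum count 10). A single model held all 6 libraries and left 3 residual degrees of freedom. Benjamini-Hochberg adjustment ran over all 20676 tested genes, separately by comparison, and genes under 0.05 were called. Standard errors come from the test statistic. CPM values were computed here from the counts with the TMM factors. TPM values and positions use GENCODE 29, in which 56447 of 60591 symbols matched 1 gene. DESeq2 1.42.0 served as an alternative, beside other normalizations, no filter, fewer libraries, a replicate block, and offsets for transcript length and GC content. Named were all 9 members, their direct partners whatever their p, up to 6 genes a list by p, and for each member that passed the 3 genes most like it. The members and lists were chosen with earlier results of these data known.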

Additional observations from a re-analysis of the deposited data

How the results depend on the processing

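Of the alternatives, 14 were run for each comparison. The PTHLH and DKK1 calls under high flow against static held in every one, with log2 fold changes of 0.85 to 1.34 and 0.56 to 0.78. Without the expression filter 1, 4 and 3 members passed in low flow against static, high flow against static and high flow against low flow, and 2260, 3549 and 241 genes in all. Offsets for length and GC content let 1 member pass under low flow and 40 genes in all between the flow rates. DESeq2 called 2 members and 116 genes between the flow rates. With only the 4 libraries compared, 604 genes passed under low flow and 36 between the flow rates. Leaving out 1 library at a time gave 2 to 4 members under high flow and 0 to 2 between the rates, and 95 to 3111, 300 to 4004 and 4 to 294 genes in the 3 comparisons. Of the 19 partner calls under high flow against static 5 held when static replicate 2 was left out and 5 when high flow replicate 1 was, and of the 17 under low flow 2 held without static replicate 2 and 4 without static replicate 1.

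With the replicate block 2 members passed between the flow rates, DKK1 and IL11 (adjusted p = 0.0225), and 907 genes under low flow. The block together with the length and GC offsets gave 1446 genes under high flow and 35 between the rates. The labels do not say that a number marks a shared culture, and the deviations of same-numbered libraries correlated at -0.25 (static and low flow), -0.01 (static and high flow) and 0.11 (low and high flow) over 15524 genes.

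Directions turned for genes that had not passed. Under those offsets, and with the block added, SPP1 (0.12 and 0.12), TNFRSF11B (0.084 and 0.080), GLI2 (-0.20 and -0.20) and LRP5 (-0.037 and -0.038) turned under high flow against static, and CSF1 (-0.15 and -0.14) between the flow rates. CSF1 also turned there with upper quartile normalization (-0.00302). Leaving out 1 library at a time gave ranges that crossed 0: under low flow IL11 (-0.23 to 0.086), CXCR4 (-0.11 to 0.92), CSF1 (-0.24 to 0.12) and TNFRSF11B (-0.10 to 0.54). Under high flow the ranges were -0.13 to 0.94 for CXCR4, -0.54 to 0.33 for SPP1, -0.23 to 0.12 for CSF1, -0.12 to 0.028 for TNFRSF11B and -0.37 to 0.33 for PTH1R. Between the flow rates they were -0.41 to 0.37 for CXCR4, -0.094 to 0.11 for CSF1 and -0.59 to 0.045 for TNFRSF11B. The cause was not tested. At 3 to 29 counts per library, CXCR4 and SPP1 are limited by depth.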

Other observations

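For each member that passed, the 3 genes with the most similar course over the 6 libraries were taken, by the root mean square difference of mean-centred log2 CPM over 11384 candidates (named genes, mean CPM 4 or more). These are descriptions with no test, and the libraries share depth and lane tag with the groups. Nearest to PTHLH was SOX9, a transcription factor of cartilage and of mammary stem cells, with a difference of 0.13, where the median over all candidates was 0.49. SOX9 averaged 103 CPM in static, 143 in low flow and 229 in high flow. LINC01836 and ZFHX2 followed at 0.14 each. For DKK1 the nearest was SYNPO, which encodes an actin-binding protein, at 0.05 (median over candidates 0.37), with 21.1, 19.5 and 31.5 CPM in static, low flow and high flow. AMOTL2, a target and regulator of YAP, came next at 0.10, with 172, 166 and 292 CPM, and then KCNAB3 at 0.10. IL11 was nearest to GNB1L (0.08), FAM43A (0.10) and ANKLE1 (0.10), with a median over candidates of 0.35. RUNX2 was nearest to ENOPH1, ADK and FAM118B, at 0.02 each, where the median was 0.19. ADK, the gene of adenosine kinase, averaged 59.8, 51.2 and 46.9 CPM.

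Among the 28 pairs of tested members the smallest such difference was between DKK1 and IL11 (0.14), followed by RUNX2 and CSF1 (0.17) and TNFRSF11B and CSF1 (0.23). The median over candidates was 0.37 for DKK1, 0.35 for IL11 and 0.19 for RUNX2. The difference between RUNX2 and CSF1 is thus near that of RUNX2 from the median candidate. No such median was computed for CSF1 or TNFRSF11B. PTHLH differed from DKK1 and from IL11 by 0.31 each.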
